A study of Bos taurus with 43 samples.

Results

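Potassium channels are membrane proteins that let potassium ions leave or enter a cell and so set its resting voltage and end its electrical impulses. In skeletal muscle, inwardly rectifying channels hold the resting potential of the fibre, voltage-gated channels repolarise the action potential, tandem-pore channels carry a background leak, and calcium-activated channels link voltage to calcium. Vessels, nerve endings and immune cells inside a muscle carry channels of their own, and auxiliary subunits change how a pore opens without conducting themselves.

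The potassium channel probes described here were the gene probes of a bovine oligonucleotide array whose gene name starts with KCN or whose annotation contains the words potassium and channel. The rule found 125 of 21475 gene probes (122 of 20602 gene names on the array), 20 by the gene name and 123 by the annotation. They comprised 47 probes of voltage-gated channels, 15 of tandem-pore channels, 14 of inward rectifiers, 8 of calcium- or sodium-activated channels, 3 of hyperpolarization-activated channels and 16 of auxiliary subunits. The rule also took in 21 probes of tetramerisation domain (KCTD) proteins and 1 of KCMF1, a ubiquitin ligase, which carry potassium channel words in their names but form no channel. A current symbol was found for 115 probes, and the other 10 kept the name of the array's design. For 3 probes the gene ID and the annotation named different members of a family, and the symbol of the gene ID was used.

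RNA came from the biceps brachii of 43 male animals, each on its own array. Of 25 commercial beef cattle aged 12 to 24 months, mostly Charolais, Limousine or their cross, 4 were suspected of corticosteroid treatment (S21, S54, S56 and S57, called positive in the study by histology and by urine chemistry) and 21 had an unknown treatment status. The negative controls were 5 cross-breed bulls (Charolais by Limousine) aged 18 months (K7, K8, K10, K11 and K12) and 13 Holstein cattle aged 13 to 18 months, kept in earlier controlled experiments. The study placed 10 unknown animals in its group B, with the positive animals, and 11 in its group A, with the cross-breed controls, from a principal component analysis of these same arrays. Which animals these were was read from its plot, since its text does not list them, and all values of sets B and A depend on that reading. Sets B and A are therefore described here without a test. The dose, the agent's timing and the breed of single animals were not used here. Bulk muscle RNA cannot tell fewer cells of a type from less RNA per cell.

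The arrays lay on 19 slides, scanned on 13 days. Neither the positive animals nor the Holstein controls shared a slide, a scan day or a scanner with the cross-breed controls, so that in these comparisons the group and the batch cannot be told apart. Sets B and A of the unknown animals shared no slide or scan day either. From set B, 4 unknown animals (50, 78, 79 and 81) lay with the positive animals on 2 slides. Some arrays stood apart before any comparison. The array of animal 79 had 40.2% of its spots well above background (the scanner software's call that a spot is brighter than its surround), and that of animal 50 had 97.3%. Animals 29, 39, 52, 61 and 76 had dim spike-in RNAs, with a mean log2 signal of the 7 brightest between 7.76 and 8.43.

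Potassium channel probes were dim in this muscle. On all 43 arrays, 19 of the 125 probes were well above background, against 36.1% of all gene probes (7747 of 21475). Without animal 79 the count was 35 of 125, and 10951 of 21475 over all gene probes. The 19 probes were those of the inward rectifiers KCNJ2, KCNJ8 and KCNJ12, the tandem-pore channels KCNK3 (probe A_73_111276), KCNK7, KCNK9 and KCNK12, the voltage-gated channels KCNC4 (A_73_116997), KCNH3 and KCNQ1, the calcium- and sodium-activated channels KCNMA1 and KCNT1, 6 KCTD proteins and KCMF1. No probe of an auxiliary subunit or of a hyperpolarization-activated channel was among them.

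The number of potassium channel probes well above background on an array was 74 to 102 in the positive group, 54 to 69 among cross-breed and 50 to 71 among Holstein controls. All 4 positive arrays lay above all control arrays. The unknown animals of set A had 57 to 80, and those of set B ran from 19 (animal 79) to 120 (animal 50). The share of all gene probes well above background moved with these counts, at 71.4% to 87.6% in the positive group, 60.9% to 71.4% among cross-breed and 60.4% to 71.3% among Holstein controls. The second dimmest spike-in RNA, which was added to every sample at the same amount, was also higher in the positive group than among controls. Within the positive and Holstein groups it did not follow the counts. It was 5.28 in S57 (102 probes) and 5.81 in S21 (74 probes), and 2.67 in C46 (71 probes) and 3.68 in C17 (53 probes). Its log2 signal was 5.28 to 5.81 in the positive group, 2.62 to 3.86 among cross-breed and 2.48 to 3.68 among Holstein controls. It was 2.11 to 4.0 in set A and 2.48 to 5.81 in set B, where animals 50, 60, 61, 78 and 81 (4.99 to 5.81) lay near the positive group. The part of this dim signal in the comparisons of dim probes was not tested.

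**Figure D1:**
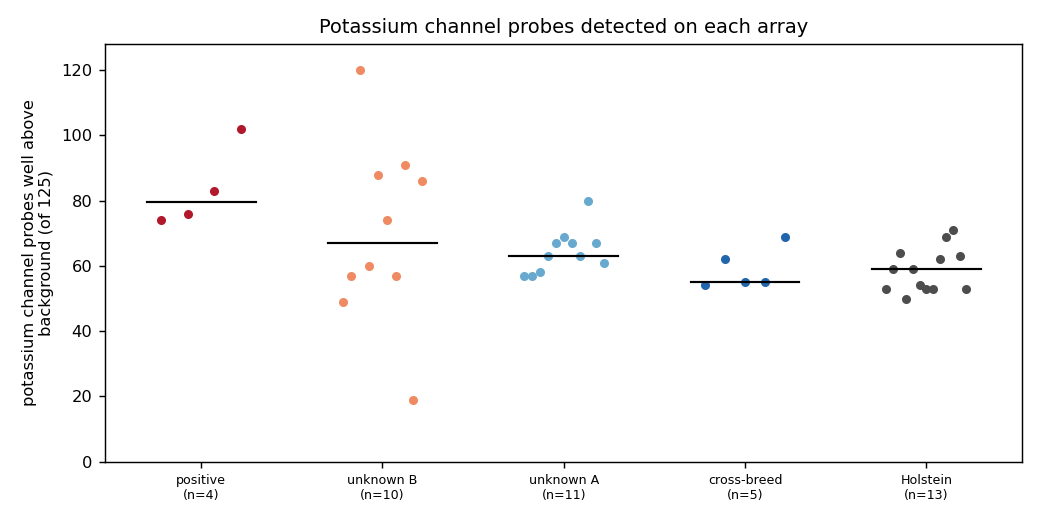
Number of potassium channel probes (of 125) brighter than background on each array by the call of the scanner software, with 1 point per animal and a line at the group median. The 4 positive animals lie at 74 to 102, above all 18 control animals, and set B of the unknown animals spans 19 to 120.

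For the tests, probes whose normalized log2 signal stayed below 4 on 30 or more of the 43 arrays were left out, which kept 77 of the 125 potassium channel probes and 16354 of all 21475. A probe was called where its fold change was at least 2 and its adjusted p in limma was under 0.05 over all 16354 probes. A probe had to be bright in some of the groups to pass, so that the 77 are not a sample of all potassium channel probes. Of the 48 left out, 8 were well above background on all 4 positive arrays and on no cross-breed array, and 4 were so on no array. The same counts over all 5121 probes left out are not given here, so these say nothing particular to potassium channels.

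The first comparison asked how channel expression differed between the animals positive for corticosteroid treatment and the cross-breed controls. Of the 77 probes, 33 were called, 20 higher and 13 lower in the positive animals (42.9%). Over all probes, 28.1% were called, 14.4% higher and 13.8% lower. Of the 20 called higher, 4 (KCNU1, KCNV1, KCTD7 and KCNMB4 at A_73_119292) passed the filter on dim probes only through the positive arrays, which left 16, and over all probes this held for 240 of 2347. None of the 13 called lower passed only through the cross-breed arrays. With pairwise cyclic loess (each array fitted to each other array) 17 of 42 called potassium channel probes were higher (40.5%), and with 75th percentile scaling 27 of 36, against 20 of 33 here (60.6%). Over all called probes the shares were 33.0% and 69.2%, against 51.0%. These scalings moved the median change of all probes to -0.26 and 0.11, from -0.03. Among the 19 probes bright on every array, 3 were called higher and 4 lower, and 15.7% of the 7747 such probes of the whole array were called.

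**Figure D2:**
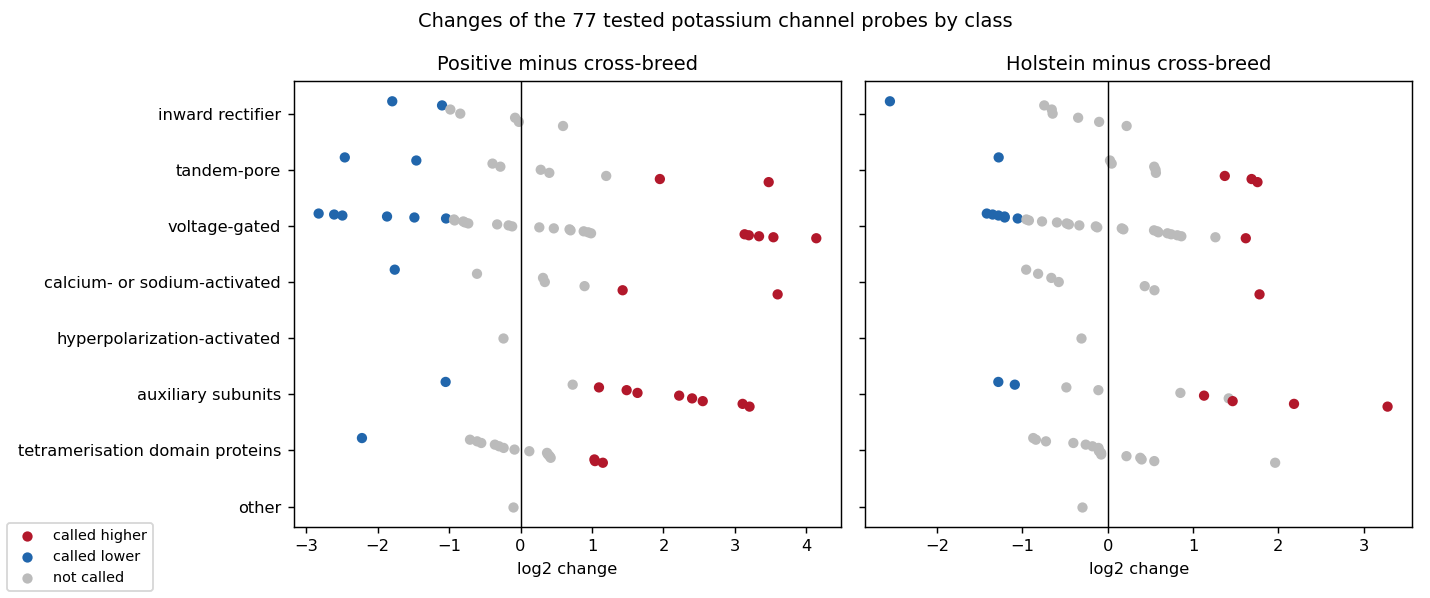
Log2 change of each of the 77 tested potassium channel probes, by class, between positive animals and cross-breed controls (left) and between Holstein and cross-breed controls (right); points are probes and the colour gives the limma call. Among auxiliary subunits 8 of 10 tested probes were called higher in the positive animals (1 of them passed the filter only through those animals), and the inward rectifiers had no probe called higher in either comparison. Over all tested probes 14.4% were called higher in the positive animals and 10.9% in the Holstein controls.

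Among the inward rectifiers, which pass potassium more easily into the cell than out of it, 2 of 7 tested probes were called lower in the positive animals and none higher. The median change of the 7 was -0.84 and stayed below 0 under every scaling. KCNJ12, a pore subunit of the classical inward rectifier of muscle, had log2 signals of 12.79, 12.79, 12.79 and 13.27 in the positive animals and 13.81 to 14.21 in the cross-breed controls, so that the groups did not overlap. It was 2.14-fold lower (log2 change -1.10, standard error 0.16, limma adjusted p = 3.36e-04). The change stayed under 2-fold with quantile normalization, with pairwise cyclic loess and with 75th percentile scaling.

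KCNJ2, the other main pore subunit of the resting conductance of the fibre, had 10.79 to 11.18 in the positive animals and 11.53 to 12.02 in the cross-breed controls. Its ranges did not overlap, but its change of -0.84 (standard error 0.16) was under 2-fold. KCNJ8, a pore subunit of ATP-sensitive channels best known from vessels, changed by 0.59 (95% interval 0.11 to 1.08) and was not called. KCNJ15, which was well above background on all 5 cross-breed arrays and on 1 positive array, was called lower (median 4.13 against 5.91, adjusted p = 1.81e-04). No potassium channel probe named KCNJ11 was found on the array.

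Among the tandem-pore channels, 2 of 9 tested probes were called higher and 2 lower. KCNK7, a member that forms no known current by itself, had 8.16 to 9.13 in the positive animals and 4.97 to 5.50 in the cross-breed controls. All 9 arrays measured it well above background, and it was 11.1-fold higher in the positive animals (log2 change 3.47, standard error 0.21, adjusted p = 1.84e-06). KCNK9, an acid-sensitive leak channel, was 3.86-fold higher, at 9.05 to 9.57 against 7.17 to 7.88 (adjusted p = 1.72e-05). KCNK3, its nearest relative and the leak channel most often described in muscle and vessels, was not called by either probe, with changes of 0.40 (95% interval -0.13 to 0.94) at A_73_111276 and 0.28 (-0.47 to 1.04) at A_73_112333.

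KCNK12, a halothane-inhibited member of the family, went the other way. Its log2 signals were 7.20, 7.30, 6.79 and 6.23 in S21, S54, S56 and S57 and 8.71, 10.13, 9.12, 10.10 and 8.63 in K7, K8, K10, K11 and K12. The ranges were apart, and the positive animals were 5.50-fold lower (log2 change -2.46, standard error 0.37, adjusted p = 3.56e-04). The call held under all 20 alternatives, with changes from -3.71 to -1.40.

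The 26 tested probes of voltage-gated channels, which open on depolarisation, were split, with 5 called higher (4 without KCNV1) and 6 lower. Their median change was -0.14 and turned to 0.29 with 75th percentile scaling. KCNC4, a fast channel of the action potential of muscle and nerve, was lower. At A_73_116997 it was 8.64 to 10.02 in the positive animals and 10.31 to 12.31 in the cross-breed controls, 3.65-fold lower in the positive animals (log2 change -1.87, standard error 0.40, adjusted p = 0.00309). The second KCNC4 probe, whose annotation names another member of the family, was called lower too (4.28 to 4.90 against 5.34 to 7.08, adjusted p = 0.00396). No fold is given because 3 of 4 positive arrays were well above background. This call was lost with 75th percentile scaling and with normexp.

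Signals of KCNA6, a delayed rectifier, were 2.85 to 3.83 in the positive animals, of which 1 array was well above background, and 5.87 to 6.77 in the cross-breed controls. It was called lower (adjusted p = 1.03e-05), with no fold given because most positive arrays were near background. KCNG3 and KCNS1, silent subunits that conduct only together with other channels, were lower as well. KCNG3 was well above background on no positive array and was at least 4.53-fold lower, where the bound sets each dim array at the lowest signal its software called well above background (adjusted p = 1.09e-05). Such bounds, here and below, hold only for the normalization used here. The changes of these probes were smaller under some alternatives. KCNS1, well above background on 1 positive and 2 cross-breed arrays, was called lower (2.26 to 2.95 against 4.54 to 5.60, adjusted p = 1.19e-05), but with most arrays of both groups near background no fold is given.

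Among the 5 voltage-gated probes called higher were those of KCNC2, KCNH2, KCNH6 and KCNV1. KCNH6, an ERG-type channel, was higher, with signals of 7.76 to 8.25 against 2.70 to 4.83 (adjusted p = 2.66e-05). Since 1 of 5 cross-breed arrays was well above background, no fold is given for it.

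KCNH2, the ERG channel that repolarises the heart, had 5.65 to 7.53 in the positive animals and 2.25 to 4.51 in the cross-breed controls (adjusted p = 2.33e-04), with 1 cross-breed array well above background and again no fold. KCNC2 was well above background on no cross-breed array and was at least 3.61-fold higher (adjusted p = 1.17e-06). KCNC2 was not called with pairwise cyclic loess or with normexp background correction, and its lowest log2 change over the alternatives was 0.67. KCNV1, a silent subunit, had 6.68 to 7.26 in the positive animals and 3.04 to 4.45 in the cross-breed controls. As for KCNU1, no fold or p is given for it, since it passed the filter only through the positive arrays.

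Other voltage-gated genes listed for muscle did not pass both limits. KCNA5 changed by 0.88 (95% interval 0.33 to 1.44), KCNC1 by -0.92 (-1.54 to -0.30), KCNQ1 by 0.99 (0.53 to 1.44) and KCND3 by -0.12 (-0.81 to 0.58) and -0.80 (-1.29 to -0.31) at its 2 probes. These depended on the setting. KCNA5 was called lower with pairwise cyclic loess (-1.48) and higher with quantile normalization (1.10) and 75th percentile scaling (1.67). KCNQ1 was on the other side of the limits under 7 of 20 alternatives (-0.15 to 2.45) and KCNC1 under 5 of 20 (-2.05 to -0.47). The KCND3 probes were called lower with pairwise cyclic loess, and A_73_115630 also with quantile normalization and without normalization. KCNA7 and both KCNQ5 probes were among the dim ones left out. KCNA7, a channel listed for muscle, was well above background on all 4 positive arrays (4.71 to 5.25) and on no cross-breed or Holstein array, but its cross-breed signals of 3.19 to 4.99 overlapped theirs.

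Among the calcium- and sodium-activated channels, 2 of 7 tested probes were called higher (1 without KCNU1) and 1 lower. KCNMA1, the large-conductance calcium-activated pore, had 9.89 to 10.38 in the positive animals and 10.24 to 11.43 in the cross-breed controls. Its ranges overlapped and its change was -0.61 (95% interval -1.12 to -0.10). KCNT1, a sodium-activated channel, was 3.39-fold lower, at 9.03 to 9.90 against 10.88 to 11.52 (log2 change -1.76, standard error 0.21, adjusted p = 9.28e-05), and was so called under all 20 alternatives. KCNU1, a channel known from sperm, was well above background on all 4 positive and no cross-breed array (6.26 to 6.77 against 2.38 to 3.73). KCNN3, a small-conductance channel, was not called (change 0.32, 95% interval -0.22 to 0.85), except as higher with pairwise cyclic loess (1.62).

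The auxiliary subunits had the largest share of higher calls of any class with more than 1 tested probe, 8 of 10 (7 without the KCNMB4 probe A_73_119292, which passed the filter only through the positive arrays), with 1 called lower, and their median change of 1.93 stayed above 0 under every scaling. Over all tested probes 14.4% were called higher. The second dimmest spike-in RNA was higher in the positive group too, at 5.28 to 5.81 against 2.62 to 3.86 among cross-breed controls. The part of this dim signal in these calls was not tested. KCNE3, a partner that lets the KCNC4 channel open near the resting voltage of muscle, had 6.86 to 7.10 in the positive animals and 2.65 to 4.73 in the cross-breed controls at A_73_110845. It was called higher (adjusted p = 4.51e-05) under all 19 alternatives, with no fold given because 2 of 5 cross-breed arrays were well above background. The second KCNE3 probe was too dim to be tested. KCNE4, a subunit that inhibits voltage-gated channels, was called higher, at 6.75 to 7.03 against 4.25 to 4.79 (adjusted p = 4.35e-06). Of 5 cross-breed arrays, 2 were well above background. KCNE4 was not called with pairwise cyclic loess or with normexp.

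KCNMB1, the subunit that raises the calcium sensitivity of KCNMA1 in smooth muscle, had 6.15 to 6.58 in the positive animals and 2.92 to 3.35 in the cross-breed controls. No cross-breed array was well above background, and KCNMB1 was at least 4.61-fold higher (adjusted p = 8.26e-07). Its lowest log2 change over the alternatives was 0.89, and its call was lost with normexp. KCNMB4, the corresponding subunit of neurons, was 2.80-fold higher at A_73_105437 (6.50 to 7.01 against 4.42 to 5.60, adjusted p = 6.03e-04). KCNAB1, a cytoplasmic subunit of voltage-gated channels, was at least 2.56-fold higher at A_73_117598 (adjusted p = 3.17e-05). This call was lost with pairwise cyclic loess and with normexp. The other KCNAB1 probe was too dim to be tested, at 2.27 to 3.15 in the positive animals and 2.26 to 3.58 in the cross-breed controls. KCNRG, a soluble protein that hinders channel assembly, changed by 0.73 (95% interval 0.33 to 1.13).

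Of 16 tested probes of KCTD proteins, 3 were called higher (2 without KCTD7) and 1 lower, and KCMF1 was not called. KCTD15 was 2.06-fold higher (12.34, 11.88, 12.80 and 13.06 against 10.58 to 11.89, adjusted p = 0.0174), and this call was lost without S56 (change 0.95), without S57 (0.86) or without K8 (0.82), and with slide or scan day as a random block. The other 5 KCTD probes that were bright on every array changed by -0.71 to 0.39.

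**Figure D3:**
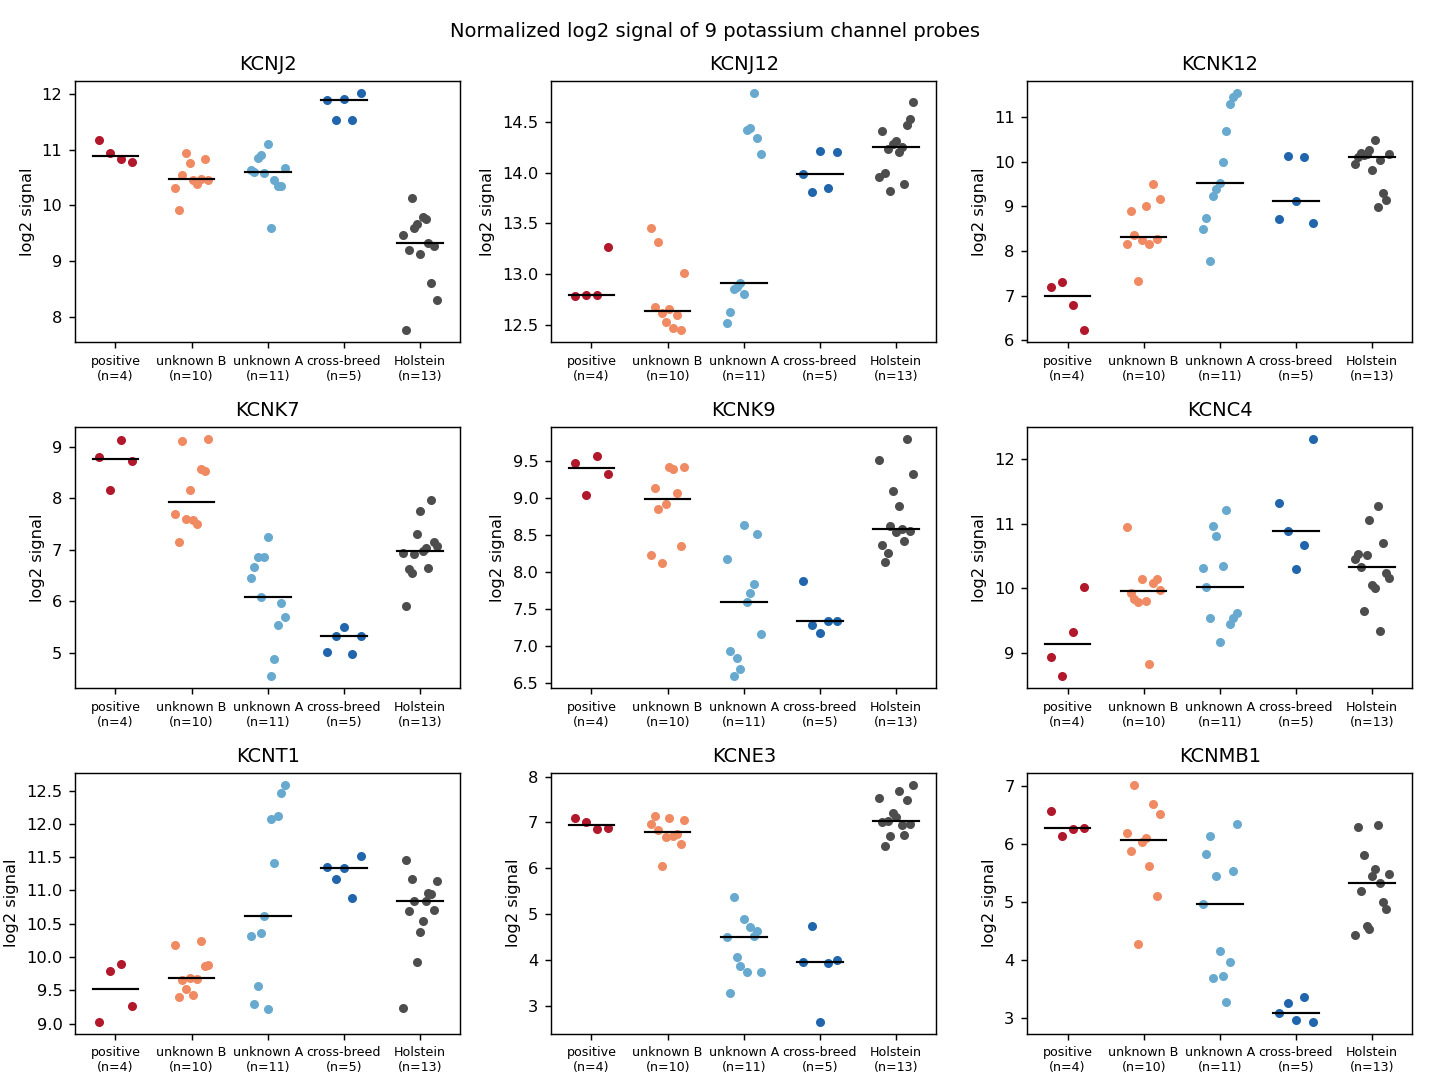
Normalized log2 signal of 9 potassium channel probes on each array, with 1 point per animal and a line at the group median, for positive, unknown (sets B and A), cross-breed and Holstein animals. KCNK12 is lowest in the 4 positive animals (6.23 to 7.30), KCNJ2 is highest in the cross-breed controls (11.53 to 12.02), and KCNE3 is low in set A and in the cross-breed controls.

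The second comparison set the 2 groups of untreated controls against each other. These differed in breed, age and batch, which cannot be told apart here. Their second dimmest spike-in RNA was alike (2.62 to 3.86 and 2.48 to 3.68), unlike that of the positive group (5.28 to 5.81). Of the 77 probes, 19 were called, 9 higher and 10 lower in the Holstein controls (24.7%). Over all probes, 20.6% were called, 10.9% higher and 9.69% lower. With pairwise cyclic loess 12 of 19 called probes were higher (63.2%), and with 75th percentile scaling 8 of 26 (30.8%), against 47.4% here. Over all called probes the shares moved the same way, to 55.2% and 34.9% from 52.9%. This comparison shares the 5 cross-breed controls with the first.

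KCNJ2 gave the largest drop. It had 7.76 to 10.13 (median 9.32) in the 13 Holstein controls against 11.53 to 12.02 in the cross-breed controls, with no overlap, and was 5.86-fold lower (log2 change -2.55, standard error 0.29, adjusted p = 2.24e-06) under all 16 alternatives. KCNJ12 did not follow it, with 13.82 to 14.69 and a change of 0.22 (95% interval -0.07 to 0.51).

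KCNE3 at A_73_110845 was higher, at 6.49 to 7.83 (median 7.03) against 2.65 to 4.73. All 13 Holstein arrays and 2 of 5 cross-breed arrays were well above background, and it was called higher under all 15 alternatives (adjusted p = 2.68e-08).

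KCNK7 was 3.38-fold higher (5.90 to 7.96, median 6.96, adjusted p = 1.37e-05), KCNK9 2.59-fold (8.14 to 9.80, adjusted p = 1.41e-04) and KCNMB4 at A_73_105437 2.76-fold (5.98 to 7.24, adjusted p = 2.65e-05). For none of these did the Holstein and cross-breed ranges overlap. KCNMB1 was at least 2.27-fold higher, where 12 of 13 Holstein and no cross-breed array were well above background (adjusted p = 5.53e-06). The calls of KCNK7, KCNK9, KCNMB4 and KCNMB1 were lost without normalization, and those of KCNMB4 and KCNMB1 also with normexp.

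KCNK2, a stretch-sensitive leak channel, was called higher with overlapping ranges (5.07 to 7.79 against 3.81 to 5.75, adjusted p = 9.31e-04). No fold is given because only 3 of 5 cross-breed arrays were well above background. Its call was lost without normalization and with normexp. KCNRG was 2.19-fold higher (adjusted p = 1.11e-05), but this call was lost under 5 of 15 alternatives (quantile normalization, 75th percentile scaling, no normalization, normexp and 1 fit of all 43 arrays).

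Several voltage-gated probes were lower in the Holstein controls. KCNC1, a fast channel listed for muscle, fell by 1.42 on the log2 scale (3.91 to 6.46 against 5.67 to 6.96, adjusted p = 0.00135). KCNQ3, a subunit of the neuronal M current, fell by 1.05 (adjusted p = 2.53e-04). KCNA6 (3.77 to 6.11 against 5.87 to 6.77, adjusted p = 0.00234) was called lower. So was KCNG3 (2.64 to 6.02 against 5.2 to 5.89, adjusted p = 0.0075). For KCNA6 and KCNG3 no change is given because some Holstein signals were dim. Their ranges overlapped. KCNC1 and KCNQ3 were not called with pairwise cyclic loess, nor KCNQ3 without K7 (change -0.98) or on the authors' values, nor KCNG3 in 1 fit of all 43 arrays, and none of the 4 with normexp. KCNV1 and the second KCNMB4 probe passed both limits as lower, but both passed the filter only through the cross-breed arrays, KCNV1 was well above background on no array of either group and the KCNMB4 probe on 1 cross-breed array, and no fold is given for them.

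The third comparison asked whether the positive animals differed from unknown animals hybridized on the same slides. It is the only comparison with positive animals that could be made within a slide, with slide as a term of the fit. Of the 77 probes, none was called, and 0.0% of all 16354. In limma at an unadjusted p under 0.05 there were 8 of 77 and 1872 of 16354, and no other normalization, background correction, filter or set of values gave a call. Without animal 79, 1 potassium channel probe was called, and 9 of all 16354.

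That probe was KCNK12. The positive animals had 7.20 and 7.30 (S21 and S54) where the unknown animals of their slide had 9.50 and 8.27 (78 and 79), and 6.79 and 6.23 (S56 and S57) where those of the other slide had 8.36 and 9.16 (50 and 81). The 4 positive arrays lay below the 4 unknown arrays, with a difference of -1.94 (standard error 0.32, 95% interval -2.69 to -1.20, limma adjusted p = 0.142). Without animal 79, whose array had the fewest spots above background, it was -2.25 (adjusted p = 0.0419). Leaving out the other animals in turn did not give a call. Markers of other cells went both ways in the same animals. The median difference of their tested probes was -1.15 for leukocytes and -0.70 for fibroblasts. It was 0.45 for Schwann cells and nerve, 0.28 for erythroid cells and -0.26 to -0.01 for the other lists. The summed leukocyte list was 1532 to 1894 in the positive and 2846 to 7311 in the unknown animals of these slides, with CD74 brightest, and the fibroblast list was 3669 to 12340 and 10100 to 41080, with DCN brightest. The fibroblast ranges overlapped. No probe of any of these lists was called, and the part of these cells in the KCNK12 difference was not tested.

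KCNK12 in the positive animals was below its level in all 39 other animals, in which it ran from 7.33 (animal 52) to 11.53. This pattern was chosen after the values were seen. Of all 16354 tested probes, 0.104% (17 probes) were lowest in the 4 positive animals and 0.0122% (2 probes) were highest, and KCNK12 was the only potassium channel probe among them. It stayed below all other animals with every other normalization and in the authors' value table, but with normexp background correction 9 other animals lay at or below the highest positive animal.

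Other within-slide differences were not called. Those of KCNJ12 (0.06, 95% interval -0.34 to 0.47), KCNK7 (-0.14, -0.55 to 0.28), KCNMA1 (0.12, -0.41 to 0.64) and KCNJ8 (0.11, -0.35 to 0.56) had intervals within 2-fold in either direction. KCNC4 at A_73_116997 differed by -0.78 (-1.39 to -0.17), and KCNH2 by 0.93 (-0.01 to 1.87). KCNE3 differed by 0.17 (-0.20 to 0.54). The median difference was 0.08 for the auxiliary subunits, below 0 with 75th percentile scaling and pairwise cyclic loess, and 0.08 for the inward rectifiers.

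**Figure D4:**
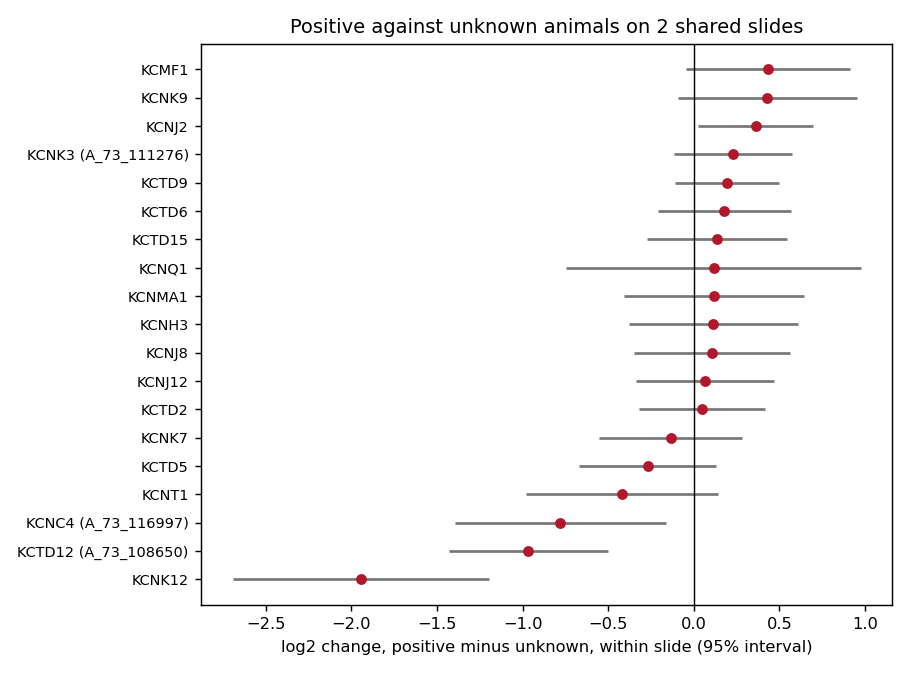
Log2 difference between positive and unknown animals within 2 shared slides, with 95% intervals from limma, for the 19 probes well above background on all 43 arrays. KCNK12 lies at -1.94 with an interval of -2.69 to -1.20, and no probe passed the adjusted threshold.

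The unknown animals on the slides of the positive animals were near them also for probes that set the positive animals apart from the cross-breed controls. Of the 20 potassium channel probes called higher in the first comparison, the median of these 4 unknown animals was nearer to that of the positive animals than to that of the cross-breed controls for 19. For the 6 other animals of set B this held for 10. The 20 include the 4 that passed the filter only through the positive arrays (KCNU1, KCNV1, KCTD7 and KCNMB4 at A_73_119292). All 4 were among the 19, and only the KCNMB4 probe was among the 10, so that these counts partly reflect the filter. Over all probes 240 of the 2347 passed in this way. Over all 2347 probes called higher the shares were 98.4% and 71.9%. Among the 13 called lower they were 10 and 11, and 90.5% and 78.9% over all 2251 such probes.

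Some dim probes differed among the animals of set B, and these were picked after the values were seen. KCNV1 and KCNU1 passed the filter on dim probes only through the positive arrays. Their contrasts with the positive animals therefore partly reflect the filter. KCNV1 had a median of 7.03 in the positive animals, 6.69 in the 4 unknown animals of their slides, 2.76 in the 6 others of set B and 3.86 in the cross-breed controls. KCNU1 had 6.54, 6.25, 2.75 and 2.85, and KCNH6 had 7.91, 8.06, 4.68 and 3.47. The medians of the 6 others hid a split within them. Animals 60 and 61 had KCNV1 at 6.74 and 6.72, KCNU1 at 6.35 and 6.55 and KCNH6 at 7.83 and 7.71, while animal 52 of the same slide had 2.34, 2.50 and 2.83. The second dimmest spike-in RNA was 5.52 and 5.37 in 60 and 61 and 2.48 in 52. KCNE3 did not split in this way, at 6.94, 6.79, 6.83 and 3.95. The part of the slide and of the dim signal in these differences was not tested.

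Between sets B and A of the unknown animals, 5 of the 77 probes were higher in B on every array and 4 were lower on every array. Over all 16354 probes, 6.2% were higher and 5.49% lower in this way, so that the potassium channel probes were near the background. The arrays had been placed in these sets by their own expression values. KCNRG showed the widest gap, at 7.0 to 7.68 in B and 3.85 to 5.09 in A, where the cross-breed controls had 5.72 to 6.50.

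KCNE3 at A_73_110845 had 6.04 to 7.15 in B and 3.28 to 5.38 in A, and KCNH2 had 4.20 to 7.75 and 1.54 to 3.84. The second KCNE3 probe, too dim to be tested, overlapped, at 2.57 to 4.12 in B and 1.66 to 5.69 in A. KCNK3 at A_73_111276 had 10.66 to 11.22 in B and 8.60 to 10.56 in A, while its second probe overlapped, at 6.63 to 8.34 and 6.28 to 8.43. KCTD9 was higher in B on every array as well, at 9.18 to 9.78 and 7.77 to 8.75.

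KCNQ3 (5.34 to 6.28 in B, 6.84 to 8.05 in A), KCNG3 (1.74 to 4.38 and 4.89 to 6.97), KCNJ15 (3.33 to 5.02 and 5.03 to 6.97) and KCNS1 (1.75 to 5.13 and 5.13 to 6.89) were lower in B. With 75th percentile scaling no potassium channel probe was lower in B on every array and 5 were higher, against 873 higher of 1482 apart over all probes.

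**Figure D5:**
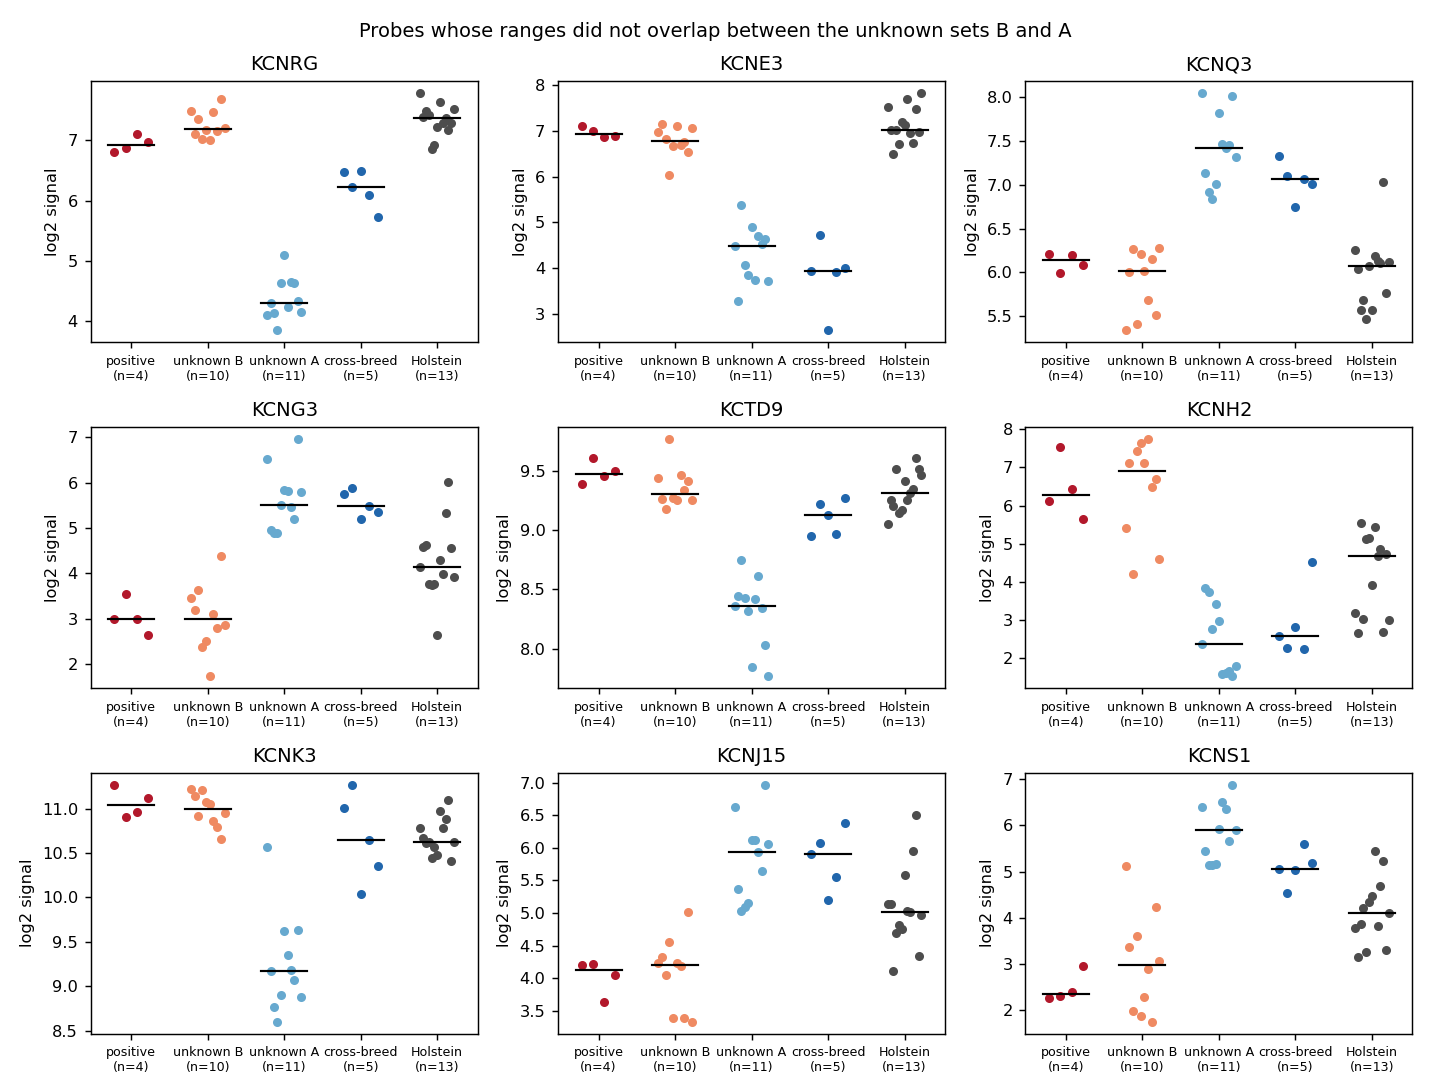
Normalized log2 signal of the 9 potassium channel probes whose ranges did not overlap between the unknown sets B and A, with 1 point per animal and a line at the group median in each of the 5 groups. KCNRG is 7.0 to 7.68 in set B and 3.85 to 5.09 in set A, below the cross-breed controls (5.72 to 6.50).

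Set A was not uniform. The animals numbered 263, 265, 266, 269 and 270 had KCNJ12 at 14.18 to 14.78, where the other 6 had 12.52 to 12.92. KCNT1 was 11.42 to 12.59 in these 5 and 9.22 to 10.62 in the 6, and KCNK12 was 10.00 to 11.53 and 7.79 to 9.52. KCNMA1 did not separate them. Of the 5, 4 shared a slide of their own. Animal 269 lay on the slide of animals 36 and 58 and had KCNJ12 at 14.34, where they had 12.52 and 12.80. The part of the slide in this split was not tested. These animals were picked out after the values were seen, and the labels give them no group.

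Other genes of muscle excitability were read from 7 lists of 44 genes, of which 43 were on the array with 43 tested probes. In the positive animals 6 of these probes were called higher and 16 lower than in the cross-breed controls, and in the Holstein controls 4 and 14, where all probes gave 14.4% and 13.8%, and 10.9% and 9.69%. On the shared slides none of them was called. ATP1B1, a subunit of the sodium-potassium pump, was higher in the positive animals by 1.25 on the log2 scale (limma adjusted p = 2.00e-04).

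The sodium channel of muscle, SCN4A, fell by 1.11 in the positive animals (adjusted p = 0.00101), and the muscle chloride channel, CLCN1, fell by 1.28 (adjusted p = 3.69e-04). One of the probes of ABCC9, the sulphonylurea receptor that joins KCNJ8 and KCNJ11 in ATP-sensitive channels, fell by 1.52 in the positive animals and by 1.75 in the Holstein controls (adjusted p = 0.00161 and 2.23e-05), while its other probe, A_73_112025, changed by 0.52 and 0.85 (not called). ATP2A1, the calcium pump of fast fibres, fell by 5.12 in the positive animals (adjusted p = 6.38e-05), and SLC12A4, a potassium-chloride cotransporter, by 1.83 (adjusted p = 8.18e-06).

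At the nerve-muscle junction, the receptor subunits CHRNA1, CHRNB1 and CHRNG fell in both comparisons, by 1.24, 1.76 and 2.15 in the positive animals and by 1.99, 1.21 and 1.78 in the Holstein controls. DOK7, an adaptor of the junction, rose by 1.83 and 2.11. These changes share the cross-breed controls.

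Some markers of other cell types were called in the first comparison, where 14.4% of all probes were called higher and 13.8% lower. Of the tested probes, 4 of 5 adipocyte, 4 of 6 endothelial, 2 of 2 erythroid, 1 of 4 Schwann cell and nerve and 2 of 9 smooth muscle and pericyte probes were called higher in the positive animals. Called lower were 2 of 6 fibroblast probes (1 higher), 1 of 7 leukocyte probes, 1 smooth muscle probe and 5 of 14 probes of muscle fibres (2 higher). The summed linear signal of the endothelial list was 7000 to 12510 in the positive group, 2855 to 5558 among cross-breed and 2293 to 5593 among Holstein controls, with VWF brightest, and that of the adipocyte list was 10270 to 13680, 2249 to 4778 and 5073 to 14930, with LPL brightest.

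The summed smooth muscle list was 100700 to 116100 in the positive animals and 98890 to 169300 in the cross-breed controls, but its brightest gene was DES, which muscle fibres express too. Its probes called higher were those of ACTA2, the actin of smooth muscle (12.83 to 13.68 against 11.59 to 12.53, adjusted p = 0.00578), and RGS5, a pericyte gene, at A_73_116455 (adjusted p = 0.0104). LMOD1 was called lower. In the Holstein controls 4 of 5 adipocyte, 4 of 6 fibroblast, 1 of 2 erythroid and 2 of 14 muscle fibre probes were called higher, and 2 muscle fibre probes and 1 smooth muscle probe lower. Over all probes 10.9% were called higher and 9.69% lower in the Holstein controls. No marker probe of these lists was below background on all 43 arrays. The part of these cells in the potassium channel changes was not tested.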

How the data were processed

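Total RNA of biceps brachii was labelled with a single dye. The authors deposited scanner files of Feature Extraction 9.5, with a processed intensity per spot (background-subtracted and detrended), mean and background intensities and spot flags, and a value table of linear intensity after their own normalization, scale otherwise unstated. The array's number limits precision. Here processed intensities were log2-transformed, normalized over 43 arrays by cyclic loess (limma 3.58.1, R 4.3.3) and averaged over the 2 spots of a probe without outlier spots. A probe counted as well above background on an array when all its remaining spots did. Groups came from the status labels and sample titles, with the breeds of the controls and sets B and A from the study. Each animal was 1 sample. limma (lmFit, eBayes) compared positive with cross-breed, Holstein with cross-breed, and positive with unknown animals within shared slides, with Benjamini-Hochberg adjustment over 16354 probes. The fits were tested on simulated data. Probe names were updated through RefSeq gene tables (74 by gene ID, 23 by accession, 17 by annotation, 1 by symbol).

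Members and lists were chosen with earlier results of these data known. Named were all probes bright on 43 arrays, up to 10 called probes per comparison that were bright on every array of the brighter group, a list of 17 channel genes described in muscle (16 with a probe), up to 10 probes whose ranges did not overlap between sets B and A, and called excitability genes. Alternatives were other normalizations, background correction, filters, values, blocks and left-out animals. Probe sequences were not used here, and a few genes that the naming rule covers are not reported here.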

Additional observations from a re-analysis of the deposited data

Results flagged for a closer look

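In 12 of 100 cases (50 named probes, in the 4 positive animals and in the 5 cross-breed controls), 1 animal lay far from the others of its group by Dixon's criterion, which chance meets in about 1 group in 20.

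Among the positive animals all 4 such values belonged to S57. Its log2 signal was 13.27 for KCNJ12 (others 12.79), 4.90 for KCNC4 at A_73_116390 (others 4.28 to 4.29), 11.81 for KCTD2 (others 11.14 to 11.24) and 0.49 for KCNQ5 at A_73_110390 (others 1.48 to 1.51, all below background).

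Among the cross-breed controls K10 was high for KCMF1 (10.82, others 10.15 to 10.29) and low for KCNC2 (2.63, others 2.85 to 2.91), KCNE4 (4.25, others 4.70 to 4.79) and KCNMB4 at A_73_105437 (4.42, others 5.27 to 5.60). K8 was high for KCNA6 (6.77, others 5.87 to 6.07) and low for KCTD15 (10.58, others 11.52 to 11.89). K12 was high for KCNH2 (4.51, others 2.25 to 2.82) and K7 for KCNK9 (7.88, others 7.17 to 7.34).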

How the results depend on the processing

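Between positive animals and cross-breed controls, 33 potassium channel probes were called. With normexp background correction the count was 12, on the authors' values 11 (38 probes) and without the filter on dim probes 53 of 125. Under the other alternatives it lay within 1.5 times of 33 (28 to 46). Over all probes the counts were, in this order, 1362 of 16354, 2460 of 11752, 7590 of 21475 and 3461 to 9876, against 4598. Without single animals 29 to 37 potassium channel probes were called. Among the named probes, normexp ended the calls of KCNA6, KCNG3, KCNH2, KCNJ15, KCNMB1, KCNS1 and KCNMB4 at A_73_105437. Without normalization KCNK9 and that KCNMB4 probe were not called. Between the control groups 19 were called. The count was 46 without normalization (1 higher), 4 with normexp and 5 on the authors' values. It was 12 where probes had to be well above background on all arrays of a group (51 tested). Without single cross-breed animals it was 18 to 20 (no Holstein animal was left out). Over all probes 3361 were called. Without normalization 8579 were called, with normexp 1391, on the authors' values 1874 of 11752 and with the background filter 2431 of 13032. On the shared slides the count of potassium channel probes was 0 to 1 without single animals, the 1 without animal 79, and 0 otherwise. Blocking on slide or scan day as a random effect gave 30 and 29 in the first comparison and 19 and 19 in the second. Leaving out animal 79 gave 35 probes bright on every array, as did leaving out 79 and 50 (35), with 24 where 1 spot sufficed. Between sets B and A, 9 probes had ranges apart, 16 without the 5 arrays of dim spike-ins (over all probes 1912 and 3229), and 5 each with pairwise cyclic loess and with 75th percentile scaling. The counts for sets B and A under other settings, those that leave out animals 79 and 50, those without probes that passed the filter only through their brighter group, and the settings tried for KCNK12 against all other animals were chosen after seeing the data. Some changes that were called here or in the alternative turned. Without normalization these were KCNK3 at A_73_112333 (-1.06, called) and KCNRG (-0.077) in the Holstein controls and KCTD15 (-0.046) in the positive animals. With pairwise cyclic loess KCNA5 turned in the positive animals (-1.48, called). Changes of other named probes turned without a call on either side, such as KCNJ8 in the positive animals (0.59, lowest -0.635). The causes were not tested, except that normexp adds an offset of 50 that shrinks changes of dim probes by construction, and that the authors' values hold fewer probes. No paired analysis was possible because replicate numbers here only name animals and none is shared by groups compared, but slide was a term of the third comparison. Dim signal limits most channels, since 19 of 125 probes were bright on all 43 arrays.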

Other observations

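A list of 10 genes known to answer early to glucocorticoids (9 on the array, 11 tested probes) was read beside the channels. In the positive animals 1 of these probes was called higher and 2 lower, and in the Holstein controls 3 and 0. Over all probes the shares were 14.4% and 13.8%, and 10.9% and 9.69%. TSC22D3, a mediator of glucocorticoid action, was called higher in the positive animals and in the untreated Holstein controls than in the cross-breed controls (limma adjusted p = 6.25e-04 and 7.65e-07). Its log2 signals were 5.1 to 5.44 and 5.09 to 6.81, against 2.64 to 4.2. No change is given because the cross-breed signals lay near or below the limit of 4 for dim probes. FKBP5, a partner of the receptor, was called higher in the Holstein controls, by 1.68 (adjusted p = 4.51e-05), and so was KLF15, by 1.31 (adjusted p = 0.0127). FKBP5 was not called in the positive animals, at 10.4 to 11.16 against 10.66 to 11.64 in the cross-breed controls. DDIT4 and GLUL fell in the positive animals by 1.94 and 2.18 (adjusted p = 9.28e-05 and 1.32e-04). On the shared slides no probe of the list was called. Its summed linear signal was 25180 to 49830 in the positive and 56010 to 68790 in the unknown animals of these slides, with PER1 brightest.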
